A study of Homo sapiens with 12 samples.

Results

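Collagen genes encode the chains of the most abundant proteins of the extracellular matrix, and they were examined here in RNA-seq of human neurons grown in culture. Members were all rows of both gene tables whose symbol had the form COL, a number, the letter A and a number. This rule took 48 identifiers with 44 gene symbols, out of 19329 identifiers listed in either table. Of the symbols, 11 encode fibrillar chains, 6 encode the type IV chains of basement membranes, and 27 belong to other classes. The iMN table held 44 of these identifiers among 16406 in all, the i3N table held 46 among 19016, and 42 collagen identifiers stood in both.

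The study asked which RNAs depend on SMN, the protein lost in spinal muscular atrophy. Motor neurons (iMNs) were derived with small molecules from an iPSC line in which Td-Tomato is driven by the HB9 promoter, and Td-Tomato+ cells were sorted by FACS. Glutamatergic neurons (i3Ns), which the labels call cortical neurons, were made from H1, an established human ES cell line engineered for inducible expression of the transcription factor NGN2. In each cell type, 3 libraries came from neurons that carried a scrambled shRNA (SCR) and 3 from neurons that carried a shRNA against SMN1 and SMN2 (SMN-KD), with RNA taken after 12 days of knockdown. Both groups of both cell types thus carried a doxycycline-inducible lentiviral shRNA vector, and either kind of neuron traces back to a line of its own. The labels do not say whether the 3 libraries of a group were separate cultures.

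The value used for each gene is the authors' mean normalized count, which averages all 6 libraries of a cell type, SCR and SMN-KD together. No values of separate libraries were used, which leaves no SD, no test and no level for SCR or SMN-KD alone. The knockdown was not checked, and genes next to each other in an order of levels cannot be told apart. The tables were normalized separately, so a difference between them is a description of 2 pooled means in which cell type, stem cell line, protocol, sorting and normalization cannot be told apart. In bulk RNA, moreover, a larger number of cells of a kind and more RNA per cell cannot be told apart. The sum over all genes of a table was 4.33e+07 for iMNs and 4.50e+07 for i3Ns, and totals of separate libraries are unknown. All 7 neuron markers (such as TUBB3 and STMN2) and all 5 motor neuron markers had means of at least 100 in both tables. Most genes passed this mark, 77.9% of all genes in iMNs and 67.3% in i3Ns. SLC17A6, a vesicular glutamate transporter, stood at 593 in iMNs and 11237 in i3Ns, and MNX1, the gene for HB9, at 430 in iMNs and 2279 in i3Ns, so the gene whose promoter drove the reporter was not higher in the sorted cells' table. The motor neuron marker ISL1, at 1663 in iMNs and 14299 in i3Ns, and the glutamatergic marker SLC17A7, at 50.1 and 6490, were also higher in i3Ns. Other members of these lists went the other way, with NEUROG2 at 263 in iMNs and 114 in i3Ns, and the cholinergic genes SLC5A7 at 8460 and 2472 and SLC18A3 at 3115 and 1865. CHAT was nearly equal, at 533 in iMNs and 527 in i3Ns.

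A collagen molecule is a triple helix of 3 chains, and its narrow core admits only glycine, so that each chain repeats a Gly-X-Y triplet. Fibrillar collagens carry a long unbroken helix and pack side by side into the banded fibrils of skin, bone and tendon, whereas type IV chains have an interrupted, flexible helix and form the meshwork of basement membranes around vessels, muscle fibres and nerve bundles. The remaining classes attach to fibrils (FACIT collagens), form beaded filaments (type VI), span the cell membrane, carry sugar chains in basement membranes (multiplexins) or build short-chain networks. In the nervous system most interstitial collagen is made by fibroblasts, meninges and Schwann cells, while neurons express particular nonfibrillar members.

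The lengths of unbroken runs over whole coding sequences, given below, show this division independently of the counts. The following 54-base stretches of GRCh38 (hg38) coding sequence are chosen examples, given from 5′ to 3′ in the sense of the gene. Every glycine codon (GGN) is in capitals, because the spacing of the capitals shows the repeat and its breaks. The COL1A1 stretch is coding exon 8 (chr17:50197949-50198002, minus strand) and the COL5A2 stretch is coding exon 10 (chr2:189085719-189085772, minus strand). Those of COL4A1 (chr13:110207478-110208890, minus strand, coding exons 12 and 13), COL4A2 (chr13:110434401-110436280, plus strand, coding exons 11 and 12) and COL6A1 (chr21:45998130-45998409, plus strand, coding exons 23 and 24) are spliced, and each spans the first short break between 2 runs of the repeat. Longer breaks were passed over in this choice, so an earlier break is possible.
COL1A1: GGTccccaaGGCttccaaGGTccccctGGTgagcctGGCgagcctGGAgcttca
COL5A2: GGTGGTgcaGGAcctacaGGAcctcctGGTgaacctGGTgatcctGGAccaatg
COL4A1: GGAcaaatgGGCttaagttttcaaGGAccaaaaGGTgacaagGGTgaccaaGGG
COL4A2: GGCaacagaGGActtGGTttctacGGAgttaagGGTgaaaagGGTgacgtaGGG
COL6A1: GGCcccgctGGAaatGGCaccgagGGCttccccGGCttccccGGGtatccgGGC

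The exons of COL1A1 and COL5A2 were chosen from inside the longest unbroken run, and the other stretches across a break. The contrast between them was thus set by the choice. In the exons of COL1A1 and COL5A2, a glycine codon opened each triplet without a gap. In COL4A1 the capitals are spread further apart at the break, and in COL4A2 and COL6A1 they come closer together there. Over the MANE Select coding sequence of each gene, the longest unbroken run had a median of 338 triplets in the 11 fibrillar genes (216 to 343), 41 in the 6 type IV genes (38 to 66) and 55 in the 27 others (23 to 113). A run was counted from 5 triplets upward. Fibrillar genes had 2 to 3 such runs, type IV genes 22 to 27. Among fibrillar genes, the longest run was shortest in COL24A1 and COL27A1, at 216 and 217 triplets. Added up over all of their 3 runs, these genes had 327 and 330 triplets, against 354 to 365 in the other fibrillar genes.

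Exon size followed the same division. Of the coding exons of fibrillar genes, 305 of 649 (47.0%) were exactly 54 bases long, which is 6 triplets. The share was 4.05% in type IV genes (12 of 296) and 14.9% in the others (157 of 1056), and 0.653% among 190900 coding exons of all 19061 reference transcripts. Among the other classes the FACIT genes had the most, 118 of 461 (25.6%), and COL8A1, COL8A2 and COL10A1 had only 2 coding exons each, none of that size.

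**Figure D1:**
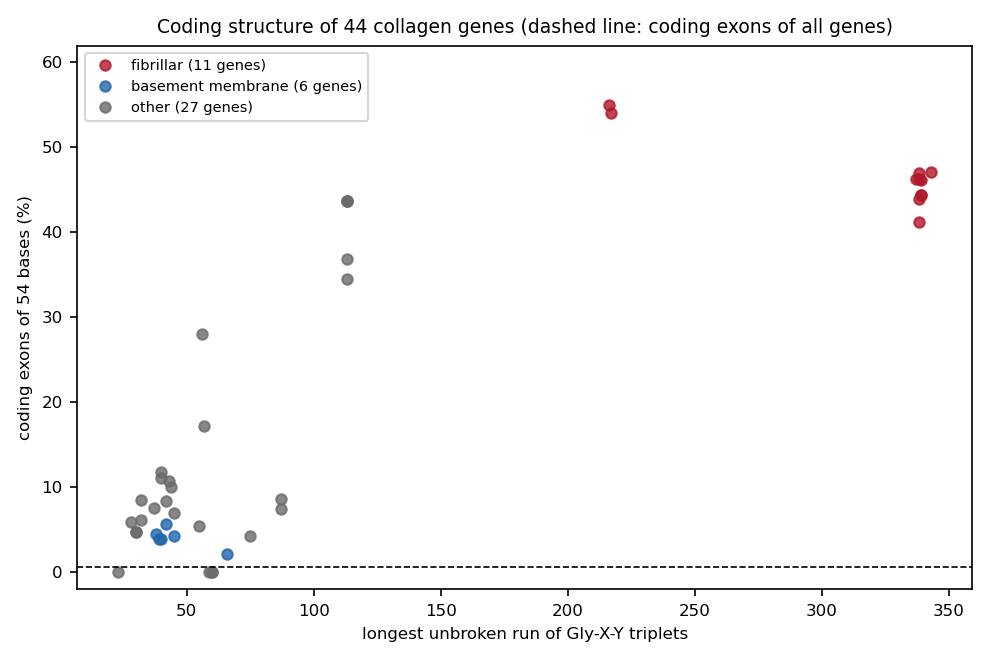
Longest unbroken run of Gly-X-Y triplets (horizontal axis) and percent of coding exons of exactly 54 bases (vertical axis) for 44 collagen genes, 1 point per gene, coloured by class. The 11 fibrillar genes stand apart with runs of 216 to 343 triplets, and the dashed line marks 0.653%, the share over all coding exons of the reference.

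The type IV genes lie head to head in pairs. By RefSeq start sites, 126 bases separate COL4A1 (minus strand) from COL4A2 (plus strand) on chromosome 13, 418 separate COL4A4 from COL4A3 on chromosome 2, and 379 separate COL4A6 from COL4A5 on the X chromosome. The first 100 of the 126 bases, which no annotated exon covers, are shown because they lie between the starts of COL4A1 and COL4A2 (chr13:110307158-110307257, GRCh38.p14, plus strand, RefSeq), with a CCAAT and a GGGCGG match in capitals.
COL4A1 and COL4A2: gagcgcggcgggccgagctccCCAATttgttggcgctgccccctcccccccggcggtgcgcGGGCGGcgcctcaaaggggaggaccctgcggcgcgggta

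G and C made up 78.0% of these bases. Searched on both strands, CCAAT occurred in 34.6% of 35116 RefSeq promoter windows (250 bases before to 50 after a start) and in 31.8% of the 44 windows of 32 collagen genes, GGGCGG in 15786 of all windows and 24 of the 44, and TATAAA in 11.5% and 18.2%. These matches are letters in a window and describe no bound factor.

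Collagen RNA was a small part of both transcriptomes. Collagen identifiers summed to 0.110% of the mean normalized counts in iMNs and 0.0961% in i3Ns, which is a scaled level of 1103 and 961. Scaled levels here are mean normalized counts after each table was brought to a sum of 1000000. A mean normalized count of at least 100 was reached by 21 of 44 collagen identifiers in iMNs (47.7%), against 77.9% of all genes of that table, and by 20 of 46 in i3Ns (43.5%), against 67.3%. The median collagen identifier stood at 90.2 in iMNs and 68.8 in i3Ns, where all genes had medians of 875 and 577. Per kb of transcript, the scale on which genes of different length can be compared, the median collagen lay at 13.1 in iMNs and 13.7 in i3Ns, at or above 10.2% and 16.9% of genes with a known length. Means under 50 were found for 20 collagen identifiers in each table, which leaves the order among them uncertain. The share of all genes under 50 was not counted.

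**Figure D2:**
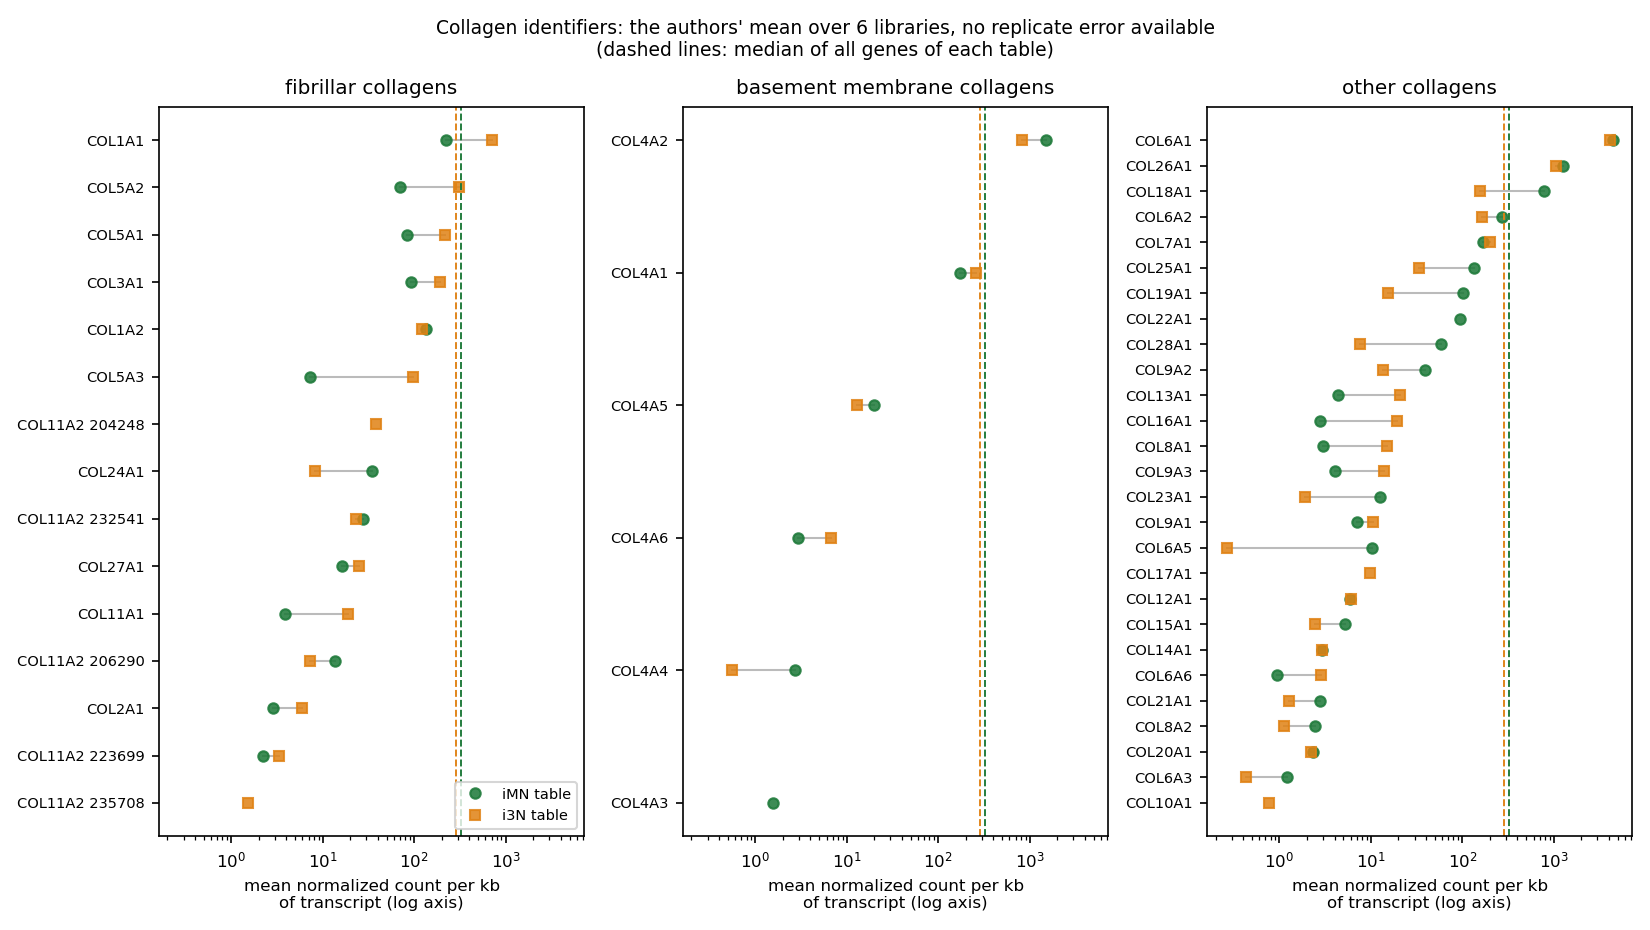
Mean normalized count per kb of transcript (log axis) of each collagen identifier in the iMN table (circles) and the i3N table (squares), by class, with a line joining the values of an identifier listed in both. The points are the authors' means over 6 libraries and carry no error bars, the dashed lines are the medians of all genes (327 in iMNs and 286 in i3Ns), and most collagens lie left of them.

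A few genes carried most of the collagen RNA. COL6A1 alone took 38.7% of the collagen counts in iMNs and 40.3% in i3Ns, and the 5 highest genes by count took 79.2% and 74.4%. Mean counts of at least 1000 were reached by 8 of 44 collagen identifiers in iMNs and 9 of 46 in i3Ns. The share of all genes at that level was not counted, and the median over all genes was 875 in iMNs and 577 in i3Ns.

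COL6A1 (ENSG00000142156, chr21:45981770-46005050, plus strand) encodes the α1 chain of type VI collagen, a beaded filament that links cells to the matrix and is mutated in congenital muscular dystrophies. It was the highest collagen per kb in both tables, at 4406 in iMNs (a mean count of 18520) and 4147 in i3Ns (17429), at or above 97.0% and 97.2% of the genes with a known length. Its partners were far lower. COL6A2, the α2 chain, stood at 273 per kb in iMNs and 166 in i3Ns, so that COL6A1 was 16.2 times and 25.0 times COL6A2 per kb. COL6A3, the usual α3 chain, had mean counts of only 12.7 in iMNs and 4.57 in i3Ns. COL6A5, which can take the place of α3, was listed at 92.2 in iMNs and 2.38 in i3Ns, and COL6A6 at 8.15 and 24.9. Type VI filaments are built from α1, α2 and an α3-like chain, and the RNAs of the 3 positions were thus present in very unequal amounts in both tables. Of the 9 annotated transcripts of COL6A1, 5 are classed as retained introns, and the libraries were made from total RNA depleted of rRNA. Among chains compared below, retained introns are 11 of 13 annotated transcripts of COL1A1 and 11 of 12 of COL1A2. They are 7 of 18 for COL4A1 and 6 of 18 for COL4A2. The part of such transcripts in the levels and chain ratios of these genes was not tested.

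COL26A1 (ENSG00000160963, chr7:101362875-101559024, plus strand), a short secreted protein with a small collagen domain, was next in i3Ns, at 1045 per kb (mean count 3111), and also high in iMNs, at 1275 per kb (3797). Its longest Gly-X-Y run, 23 triplets, was the shortest among the 44 genes. COL7A1, the anchoring fibril collagen that fastens epithelia to the tissue beneath, had mean counts of 1568 in iMNs and 1848 in i3Ns, which is 170 and 200 per kb.

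The 3 classes divided the collagen counts differently in the 2 tables. Fibrillar collagens held 9.23% of the collagen counts in iMNs and 26.1% in i3Ns, type IV collagens 23.2% and 16.5%, and the others 67.6% and 57.3%. Divided by transcript length, the shares were 7.24% and 20.3% for fibrillar, 17.4% and 12.6% for type IV, and 75.3% and 67.1% for other collagens. Relative to each table's sum, fibrillar collagens came to a scaled level of 102 in iMNs and 251 in i3Ns, a ratio of 2.46. Type IV collagens came to 256 and 159, a ratio of 1.61 in the opposite direction. COL4A2 alone gave 225 of the type IV level in iMNs and 118 in i3Ns, so the type IV ratio rests largely on 1 gene. COL4A1 went the other way, at 25.8 in iMNs and 37.9 in i3Ns. Of the 5 type IV identifiers in both tables, 3 were higher in iMNs and 2 in i3Ns. Without COL6A1, a choice made after seeing the data, the fibrillar share was 15.1% in iMNs and 43.7% in i3Ns, and the direction was the same.

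**Figure D3:**
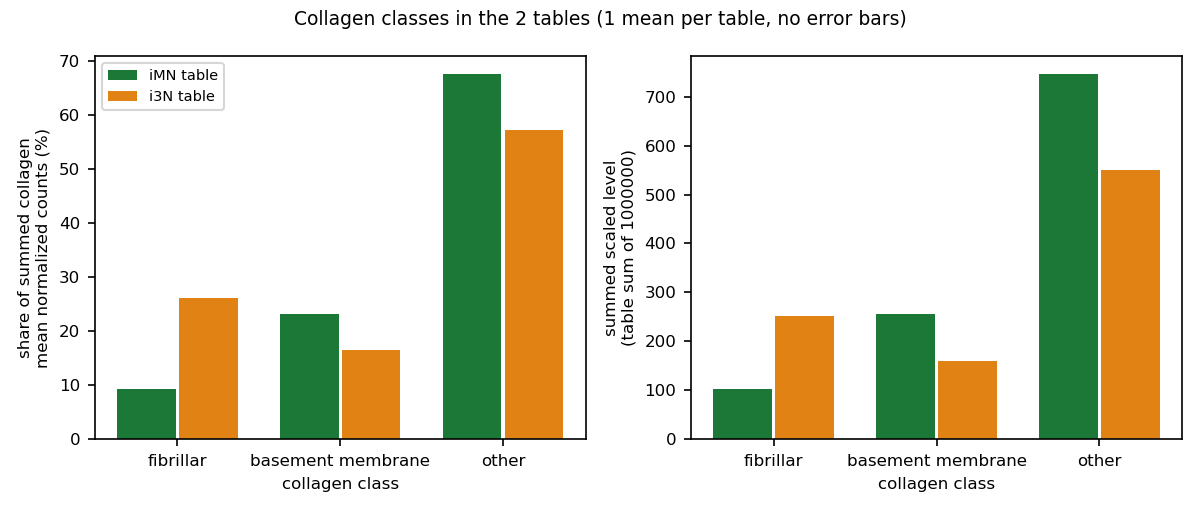
Share of the summed collagen mean normalized counts in percent (left) and summed scaled level (right) for fibrillar, basement membrane and other collagens, with 1 bar per table. Fibrillar collagens take 9.23% in iMNs and 26.1% in i3Ns, and the other collagens, with COL6A1 the highest among them, take 67.6% and 57.3%; each bar is a pooled mean without error.

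Between the tables, 42 collagen identifiers could be compared gene by gene, with 1 added to both scaled levels before the log2 ratio was taken. This pseudocount draws weakly expressed genes toward 0. On that scale, 24 of the 42 were higher in iMNs (57.1%), against 49.1% of all 16093 genes, with a median log2 ratio of 0.09 for collagens and -0.01 for all genes. Levels were at least 4-fold higher in iMNs for 2 of 42 collagens (4.76%), against 2.72% of all genes, and at least 4-fold higher in i3Ns for 2 (4.76%), against 1.93%. At 2-fold the counts were 6 (14.3%), against 9.19%, and 7 (16.7%), against 6.88%. The counts of 2 on either side depended on the pseudocount. Without it, a choice made after seeing the data, 8 collagens were at least 4-fold higher in iMNs, against 5.75% of all genes, and 6 in i3Ns, against 3.22%. The added ones were COL28A1, COL25A1, COL24A1, COL23A1, COL4A4 and COL6A5 in iMNs and COL11A1, COL13A1, COL16A1 and COL8A1 in i3Ns, and all but COL25A1 had a mean under 100 in the table where they were lower.

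**Figure D4:**
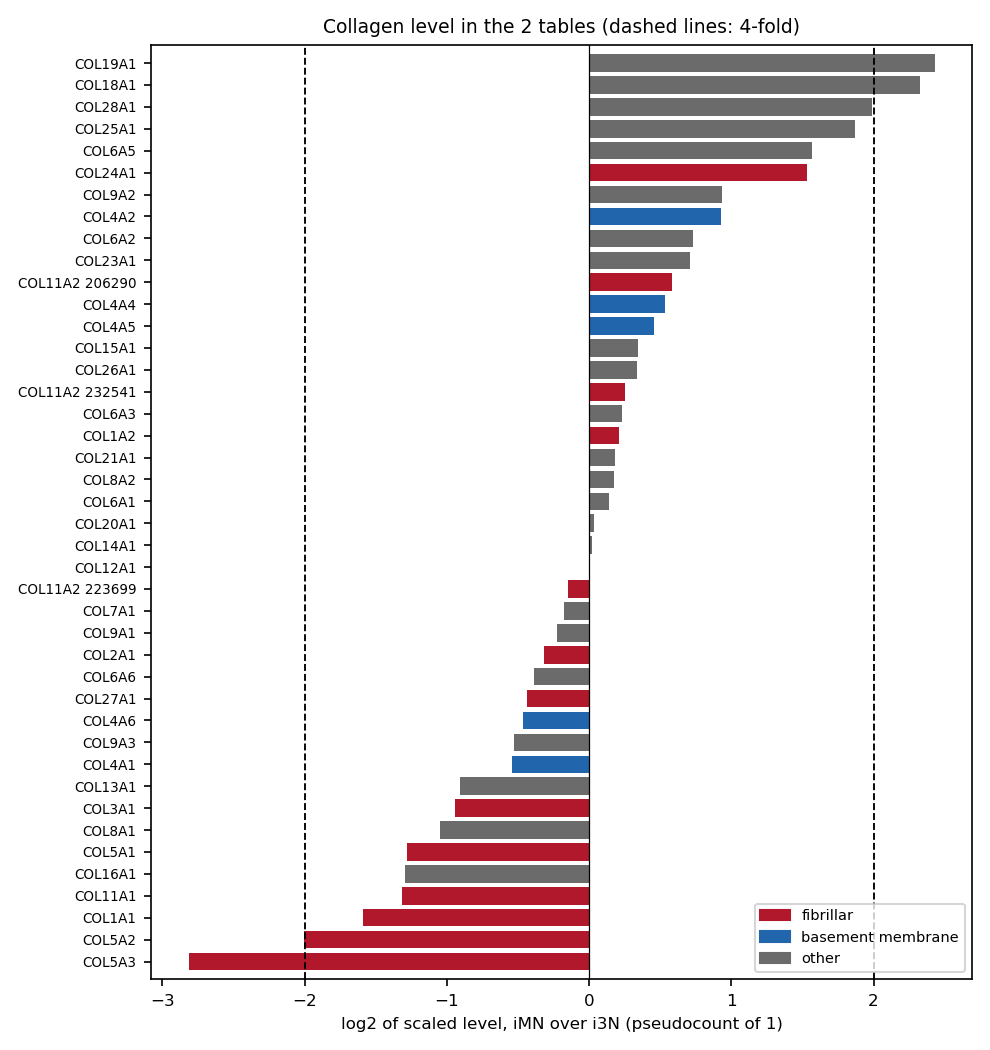
Log2 ratio of the scaled level in iMNs over that in i3Ns for the 42 collagen identifiers listed in both tables, with bars coloured by class and dashed lines at 4-fold. Fibrillar collagens gather at the bottom, with COL5A3 at -2.81 and COL5A2 4.01 times higher in i3Ns, and COL19A1 and COL18A1 stand at the top with 2.43 and 2.32; no error could be drawn.

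Among the fibrillar collagens, 9 of 13 identifiers were higher in i3Ns, 5 of them at least 2-fold, and 1 was at least 2-fold higher in iMNs, with a median log2 ratio of -0.44. Of all genes, 49.1% were higher in iMNs, 9.19% at least 2-fold, and 6.88% were at least 2-fold higher in i3Ns. The 13 are not all separate genes, as 3 are alternate identifiers of COL11A2. Of these, ENSG00000232541 and ENSG00000206290 were higher in iMNs. COL5A3 (ENSG00000080573, chr19:9959561-10010504, minus strand), a minor chain of type V collagen, had a mean count of 45.3 in iMNs and 603 in i3Ns, a log2 ratio of -2.81 or 7.04 times more in i3Ns with the pseudocount and 12.8 times without it. COL5A2 (ENSG00000204262, chr2:189031898-189225312, minus strand), whose exon is printed above, stood at 472 in iMNs and 2105 in i3Ns, which is 4.01 times more in i3Ns and just inside the 4-fold mark. The third type V chain, COL5A1, was listed at 696 and 1824. Type V molecules start and limit the growth of type I fibrils, and all 3 of their chains were higher in i3Ns.

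COL1A1 (ENSG00000108821, chr17:50184101-50201632, minus strand), the α1 chain of type I collagen, was the highest fibrillar collagen per kb in both tables, at 223 in iMNs and 715 in i3Ns (mean counts of 1321 and 4228). Its log2 ratio of -1.59 was the nearest to the 4-fold mark from outside among collagens higher in i3Ns. Its partner COL1A2 did not share that difference, with 135 per kb in iMNs and 120 in i3Ns, so that COL1A1 was 1.65 times COL1A2 per kb in iMNs and 5.94 times in i3Ns. COL3A1, the type III chain found with type I in soft tissues, had mean counts of 507 in iMNs and 1053 in i3Ns. COL24A1 differed most in the other direction, at 238 in iMNs and 56.4 in i3Ns with a log2 ratio of 1.53. It is also 1 of the 2 fibrillar genes with a shorter unbroken run of triplets. COL27A1, the other one, stood at 125 and 193. The cartilage chains COL2A1 (14.5 in iMNs and 29.9 in i3Ns) and COL11A1 (28.0 and 139) were low in both.

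Markers of cells that make fibrillar collagen were compared as measured facts beside this difference. Of 8 fibroblast and mesenchyme markers, 5 were listed in iMNs, none with a mean of 100, and they summed to a scaled level of 2.55. In i3Ns, 7 of the 8 were listed, 2 of them above 100, and they summed to 10.9. Beside these counts, 77.9% of all genes reached 100 in iMNs and 67.3% in i3Ns. PDGFRB stood at 276 in i3Ns (30.8 in iMNs), PDGFRA at 105 (26.2) and DCN at 3.89 (no value in iMNs). DCN and PRRX1 (5.58 in i3Ns) lay under 7.73, the lowest mean listed for any gene in iMNs. Their absence from the iMN values thus shows no difference. Of 4 smooth muscle and pericyte markers, 3 listed in iMNs summed to a scaled level of 9.63 and 4 listed in i3Ns to 30.4, with ACTA2 at 80.9 and 583. The 3 cartilage markers did not share this direction and summed to 4.67 in iMNs and 4.20 in i3Ns, with ACAN at 71.7 and 20.1 and SOX9 at 93.5 and 135. The pluripotency gene LIN28A stood at 215 in iMNs and 4216 in i3Ns, POU5F1 at 13.9 and NANOG at 7.73 in i3Ns. The part of other cells in the fibrillar collagen levels was not tested.

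Several identifiers share the symbol COL11A2, a cartilage collagen gene within the MHC region of chromosome 6, for which the assembly carries alternate sequences. The identifier on the main assembly (ENSG00000204248, chr6:33162681-33192499, minus strand) was listed at 248 in i3Ns and not analysed here for iMNs. Of the alternate identifiers, ENSG00000232541 stood at 177 in iMNs and 147 in i3Ns, ENSG00000206290 at 88.2 and 46.1, ENSG00000223699 at 14.2 and 21.2, and ENSG00000235708 at 9.77 in i3Ns. These copies are nearly identical and reads can be split among them, so each value is uncertain. Summed over 3 identifiers in iMNs and 5 in i3Ns, COL11A2 came to 280 and 472, or scaled levels of 6.45 and 10.5. The i3N sum includes ENSG00000204248 and ENSG00000235708, which have no value for iMNs, so the sums cover different identifiers and give no direction.

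The type IV chains were led by COL4A2 (ENSG00000134871, chr13:110305812-110513209, plus strand), the second highest collagen in iMNs at 1515 per kb and the third in i3Ns at 824 per kb (mean counts of 9767 and 5314, log2 ratio 0.93). COL4A1 (ENSG00000187498, chr13:110148963-110307157, minus strand), which starts from the stretch printed above and supplies the other chain of the common α1α1α2 molecule, was lower in both tables, at 171 per kb in iMNs and 261 in i3Ns (1117 and 1706, log2 ratio -0.54). Per kb, COL4A2 was thus 8.87 times COL4A1 in iMNs and 3.16 times in i3Ns, although the molecule needs more α1 than α2 chains. COL4A2 was higher in iMNs and COL4A1 in i3Ns, both by less than 2-fold. An annotated transcript of COL4A2 begins inside the COL4A1 gene on the other strand without sharing its exons, and the use of strand in the quantification is not given in the sources used here.

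The other type IV chains, which form the basement membranes of kidney, lung, eye and inner ear, were weak. COL4A5 had a mean count of 129 in iMNs and 85.2 in i3Ns, and its neighbour COL4A6 of 19.3 and 44.6, a ratio per kb of 6.80 and 1.95. COL4A4 was listed at 27.2 in iMNs and 5.53 in i3Ns. COL4A3 was listed at 12.6 in iMNs, where COL4A4 was 1.74 times as high per kb, and was not analysed here for i3Ns. None of the 5 type IV identifiers in both tables differed by 2-fold on the scale with the pseudocount, while COL4A4 was 5.12 times higher in iMNs without it. On the scale with the pseudocount, 9.19% of all genes were at least 2-fold higher in iMNs and 6.88% in i3Ns.

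**Figure D5:**
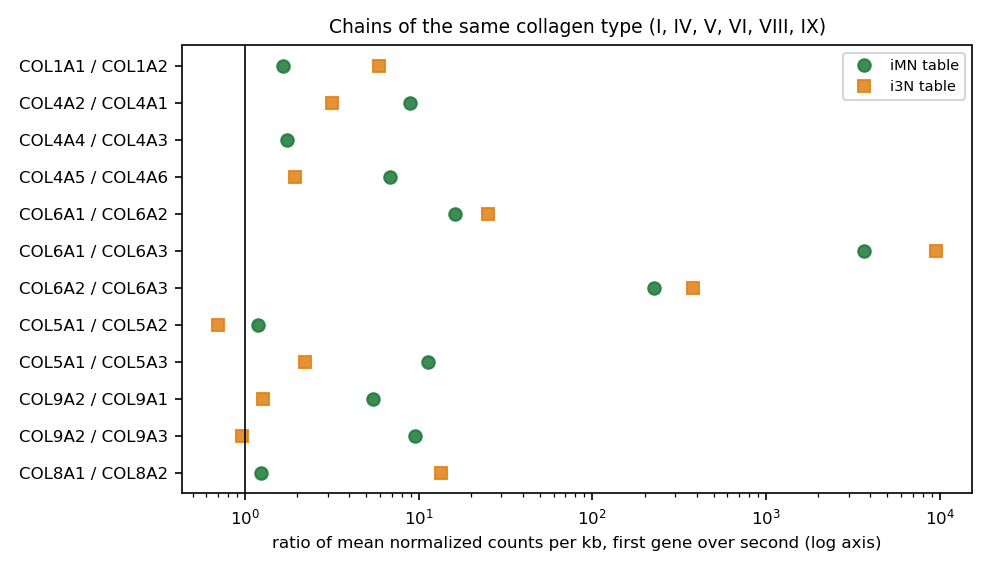
Ratio of mean normalized counts per kb (log axis) between chains of the same collagen type in the iMN table (circles) and the i3N table (squares), where the vertical line marks equal levels. COL6A1 exceeds COL6A2 by 16.2 and 25.0 times, and COL4A2 exceeds COL4A1 by 8.87 and 3.16 times; type VI with COL6A3 gives the widest ratios because COL6A3 is close to the lowest means listed.

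Of the remaining collagens, 17 of 24 were higher in iMNs and 5 were at least 2-fold higher there, against 2 in i3Ns. Among all genes the shares were 49.1% and 9.19% for iMNs and 6.88% at least 2-fold higher in i3Ns. COL19A1 (ENSG00000082293, chr6:69866556-70212468, plus strand), a FACIT collagen known from interneurons and from muscle, had a mean count of 881 in iMNs and 133 in i3Ns, with a log2 ratio of 2.43 or 5.39 times more in iMNs. COL18A1 (ENSG00000182871, chr21:45405165-45513720, plus strand), a heparan sulfate proteoglycan of basement membranes whose C-terminal fragment is endostatin, stood at 4223 in iMNs and 841 in i3Ns, a log2 ratio of 2.32, and reached 781 per kb in iMNs, below only COL6A1, COL4A2 and COL26A1 among collagens. The gene SLC19A1 on the other strand shares 18.5% of the annotated exonic bases of COL18A1. It stood at 1775 in iMNs and 1153 in i3Ns, and reads of the 2 genes in this stretch can be told apart only with strand. LMBRD1 shares 0.771% of the exonic bases of COL19A1.

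Just under the 4-fold mark in iMNs on the scale with the pseudocount came COL28A1, a type VI relative known from Schwann cell basement membranes, at 253 in iMNs and 32.6 in i3Ns (log2 ratio 1.99), and COL25A1, a transmembrane collagen that motor axons need to enter muscle, at 1026 and 259 (log2 ratio 1.87). Without the pseudocount both passed the mark, COL28A1 at 8.06 times and COL25A1 at 4.12 times more in iMNs. COL25A1 was the highest per kb of the transmembrane collagens listed in either table. COL13A1, which acts at the neuromuscular synapse, went the other way, at 13.6 in iMNs and 66.1 in i3Ns, and COL23A1 was listed at 36.2 and 5.50. COL6A5 gave 92.2 and 2.38 with a log2 ratio of 1.57 on the scale with a pseudocount, while the ratio of its scaled levels alone was 40.3.

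The FACIT collagens as a group summed to a scaled level of 40.8 in iMNs and 10.4 in i3Ns. In iMNs COL19A1 gave 20.3 and COL22A1 14.0 of this, and in i3Ns COL19A1 gave 2.96 and COL16A1 2.30. COL22A1 (ENSG00000169436), a collagen of tissue junctions such as that of muscle and tendon, had a mean count of 604 (94.5 per kb) in iMNs and was not analysed here for i3Ns. Of the type IX chains, COL9A2 led in iMNs at 110 (38.5 in i3Ns), while COL9A1 and COL9A3 stood at 26.2 and 10.1 in iMNs and at 39.3 and 34.8 in i3Ns. COL16A1 was higher in i3Ns, at 104 against 15.0 in iMNs, and COL12A1 was nearly equal, at 68.9 and 71.5. COL14A1, COL20A1 and COL21A1 had means of 5.25 to 23.6 in both tables.

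The short-chain collagens were weak. COL8A1, found in vessel walls and the cornea, was listed at 16.7 in iMNs and 83.7 in i3Ns, COL8A2 at 11.4 and 5.28, and COL10A1, a product of hypertrophic cartilage, at 2.52 in i3Ns, with iMNs not analysed here. COL17A1, a transmembrane collagen of hemidesmosomes, was listed at 54.6 in i3Ns and not analysed here for iMNs. COL15A1, the second multiplexin, stood at 27.5 in iMNs and 12.9 in i3Ns. The lowest mean listed for any gene was 7.73 in the iMN table and 1.37 in the i3N table, so the tables reach down to different levels.

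Genes that make, export, process and bind collagen were then examined. Of 47 such genes, 45 were listed in iMNs and 34 of them had a mean of at least 100, and all 47 were listed in i3Ns, 36 at that level, beside 77.9% and 67.3% of all genes of the tables. All 5 chaperone and export genes were above 100 in both tables, among them SERPINH1, the collagen chaperone HSP47, at 1679 in iMNs and 2094 in i3Ns. Of 15 genes for prolyl and lysyl modification, 13 were above 100 in each table, with PPIB the highest per kb at 7771 and 6056. At the 4-fold mark, 2 of the 45 genes in both tables were higher in iMNs, against 2.72% of all genes, and 2 in i3Ns, against 1.93%. COLGALT2, a galactosyltransferase for collagen hydroxylysine, and DDR1, a collagen receptor kinase, were higher in iMNs with log2 ratios of 2.68 and 2.58. LOXL1, which crosslinks matrix proteins, and ITGA1, the α1 integrin chain of a collagen receptor, were higher in i3Ns with -3.38 and -2.57. The median log2 ratio over the 45 genes in both tables was -0.28, against -0.01 over all genes.

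The levels of the receptors and matrix partners show what stands beside the collagens. ITGB1, the β1 integrin chain shared by the collagen-binding integrins, was the highest receptor per kb, at 3184 in iMNs and 7813 in i3Ns. Of the 7 receptors, 3 were above 100 in iMNs and 5 in i3Ns. Beside this count and those of the next lists, 77.9% of all genes reached 100 in iMNs and 67.3% in i3Ns. Of the 7 basement membrane partners of type IV collagen, 6 were above 100 in both tables, led by AGRN, the gene for agrin, which organizes the neuromuscular synapse, at 2023 per kb in iMNs and 1406 in i3Ns. LAMC1, a laminin chain, stood at 1913 in iMNs and 7926 in i3Ns. Of the 8 genes for propeptide removal, 4 were above 100 in each table, with PCOLCE2 the highest per kb in iMNs at 189 and BMP1, the C-proteinase of fibrillar procollagens, in i3Ns at 269.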

How the data were processed

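Total RNA was depleted of rRNA and sequenced as paired ends. The authors used fastp for trimming, Salmon for transcript abundance and DESeq2 for the 2 comparisons of SMN-KD with SCR (hg38; versions and annotation are not given in the sources used here). The deposited tables, 1 per cell type, hold a signal value, the mean over 6 libraries of counts divided by size factors, and the authors' fold changes, standard errors and p-values. Only the mean was used, and no comparison column was used or is printed, so the planned edgeR test on counts per library could not be made. Library depth is unknown.

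Levels per kb were divided by the MANE Select transcript length of GENCODE release 44 (alternate-sequence identifiers took that of the main identifier), which is not the effective length Salmon uses. Lengths were found for 14276 identifiers of the iMN table and 15537 of the i3N table. Promoter windows are RefSeq GRCh38.p14 and matched 32 of 44 symbols. A level minimum of 100, a pseudocount of 1 on the level scaled to a table sum of 1000000 and a 4-fold mark were used. Named with values were the 5 highest per kb in each table, all members past 4-fold, in 1 table only or sharing a symbol, and the head-to-head pairs, and at most 5 genes of each other list; other members were added after their values were seen. Members and lists were chosen with earlier results of these data known. Scripts ran in Python 3.11.15 with pandas 2.3.3 and numpy 2.4.6. Scaling and log2 ratios were tested on simulated means with changes planted in highly expressed genes only, and the percentile on a short fixed list. The steps for lengths, coding structure, promoters and overlaps were not tested in this way.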

Additional observations from a re-analysis of the deposited data

How the results depend on the processing

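No paired analysis was possible because only means over all 6 libraries of a cell type were used. For the same reason the alternatives planned on counts per library (another tool, no filter on low counts, a replicate block and leaving out each replicate) were not run, and depth per library is unknown.

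Of 56 alternative values, 30 stayed within 1.5 times the reported value. A minimum of 10 gave 43 collagen identifiers in iMNs and 38 in i3Ns, and a minimum of 1000 gave 8 and 9. The shares of all genes at these minimums were not counted. Without COL6A1 the fibrillar share was 15.1% in iMNs and 43.7% in i3Ns, the type IV share 37.8% and 27.7%, and the share of the others 28.6% in i3Ns. With COL7A1, COL15A1 and COL18A1 counted as basement membrane collagens, that class held 35.3% in iMNs. The class median, as a percentile of all genes of the table, depended on length. Not divided by length it was 27.4 in iMNs and 37.8 in i3Ns for fibrillar, 19.8 and 31.5 for type IV, and 13.7 and 25.6 for other collagens, in place of 15.5 and 21.3, 9.09 and 16.6, and 5.95 and 15.1. Per kb of coding sequence the others stood at 3.84 in iMNs, and among means of at least 10 type IV stood at 30.4 and the others at 8.95 in i3Ns. For 4-fold differences, centring on the median ratio left 2 collagens higher in iMNs and 1 in i3Ns (COL5A2 passed below the mark), a pseudocount of 10 left 0 and 0, no pseudocount (chosen after seeing the data) gave 8 and 6, and 2-fold gave 6 and 7.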
